A study of Mus musculus with 6 samples.

Results

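The genes described here are those of the cell cycle engine: the cyclins of classes A, B, D and E, the cyclin-dependent kinases (CDKs), the CDK inhibitors, the E2F transcription factors, the retinoblastoma family and the Cdc25 phosphatases. They were chosen by the name printed for each probe on the array: the families Ccna, Ccnb, Ccnd, Ccne, Cdk and E2f followed by a digit, all names that begin with Cdkn, and the names Cdc2a (now Cdk1), Rb1, Rbl1, Rbl2, Cdc25a, Cdc25b and Cdc25c. This gave 91 of the 41174 probes of the array, for 53 genes. The name rule also takes 12 genes that are no cyclin, CDK, inhibitor or E2F themselves, such as Cdk5r1, Cdk2ap1 and Cdkn3, and these are counted in the totals and described apart from the rest. CDKs that carry an older name on this array fell outside the rule.

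The samples were mouse pre-pro-B cells with the genotype Ebf1 -/-. Cells infected with a pMYs retrovirus that encodes Ebf1 and EGFP (Ebf1 cells, n = 3) were compared with cells infected with the same vector encoding EGFP alone (control cells, n = 3). Both groups lacked the endogenous gene, were kept on OP9 stromal feeders with Flt3 ligand, stem cell factor and interleukin 7, each at 10 ng/ml, and were sorted for EGFP after 24 h of culture. The comparison asks what expression of Ebf1, a transcription factor without which B cell development stops early, does to the transcripts of such cells. The titles name the insert Ebf1beta, and no label says whether the replicates came from separate mice or cultures, so the p-values measure the spread between these samples only. In a population of sorted cells, a change in the share of cells in a phase of the cycle and a change in RNA per cell cannot be told apart.

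As background, D cyclins carry growth factor signals into the cycle by activating Cdk4 and Cdk6, which phosphorylate the retinoblastoma family of pocket proteins. This frees activator E2Fs, which induce genes of the G1 to S transition, the E cyclins among them, and E cyclins then drive Cdk2. A and B cyclins with Cdk1 carry cells through G2 and mitosis, Cdc25 phosphatases switch the kinases on, and INK4 and Cip/Kip proteins block them. In B cell progenitors, interleukin 7 is a main proliferative signal, and Ccnd2 and Ccnd3 are the D cyclins best known from lymphocytes.

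All values below are log2 signals relative to the 75th percentile of the same array, and all changes are Ebf1 minus control on that log2 scale, with the standard error (SE) of the fit. The 75th percentile signal was 316 to 364 on Ebf1 arrays and 240 to 366 on control arrays. A gene is read from its brightest tested probe, and a call is an adjusted p under 0.05 in limma's two-sided test over all 20452 tested probes. Signals of different probes are not comparable with each other. The virus-encoded gene gives no check of the labels: 1 Ebf1 probe stood at 0.21, 0.40 and 0.27 in Ebf1 cells against 0.86, 0.10 and 0.36 in control cells, a second was above background on no array, and whether either lies in the viral insert is not known here. Among markers of committed B cells, 7 of 10 were tested and 7 were called higher in Ebf1 cells, beside 12.6% of all tested genes. Slide 1 held Ebf1 replicate 1 and control replicate 2, while the other slides held arrays of a single group. A fit with slide as a block therefore rests on the difference between these 2 arrays.

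Of the 53 genes, 49 were tested, and 7 were called, 3 higher and 4 lower in Ebf1 cells. Over all tested genes of the array 23.5% were called, 12.6% higher and 10.9% lower, and among the 12543 genes above background on all 6 arrays 21.1% were called. The cell cycle genes were thus called at 14.3%, below those shares. Without the 12 genes taken for their names, 38 were tested and 4 called, 2 higher and 2 lower, with a median change of -0.04. By probe, 3 of 77 were called higher and 8 lower, against 21.6% of all tested probes called (11.5% higher and 10.1% lower). The genes higher in Ebf1 cells were the CDK inhibitors Cdkn1a and Cdkn2c and the gene Cdk5rap1. The genes lower in Ebf1 cells were Ccne1, E2f6, Cdk5r1 and the cyclin B2 pseudogene Ccnb2-ps. The kinases themselves, the D, A and B cyclins and the pocket proteins had no called gene when read from their brightest probes.

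Changes of the cell cycle genes were mostly small. Of the 49 tested genes 33 (67.3%) had a change of less than 0.5 in either direction, close to the 66.6% of all tested genes. A change of 1 or more was reached by 2 genes (4.08%), Ccne1 and Ccnb2-ps, against 12.3% of all tested genes and 8.68% of those above background on all 6 arrays. Ccnb2-ps is one of the 12 taken for their names, and without these 12 the shares were 68.4% under 0.5 and 2.63% at 1 or more. The 95% confidence interval of a change had a median half-width of 0.42 over the 49 genes, so a gene that was not called is not shown to be unchanged. The change was above 0 for 23 genes and below 0 for 26, with a median of -0.01 beside -0.06 for all tested genes. The groups did not overlap for 24 of the 49 genes, beside 45.3% of all tested genes. Scaling each array by its median in place of the 75th percentile moved the median of all genes to -0.38 and that of the cell cycle genes to -0.33. Under that scaling 7 cell cycle genes were called lower by limma, and Cdkn1a, Cdkn2c and Cdk5rap1, still above 0, were no longer called.

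**Figure D1:**
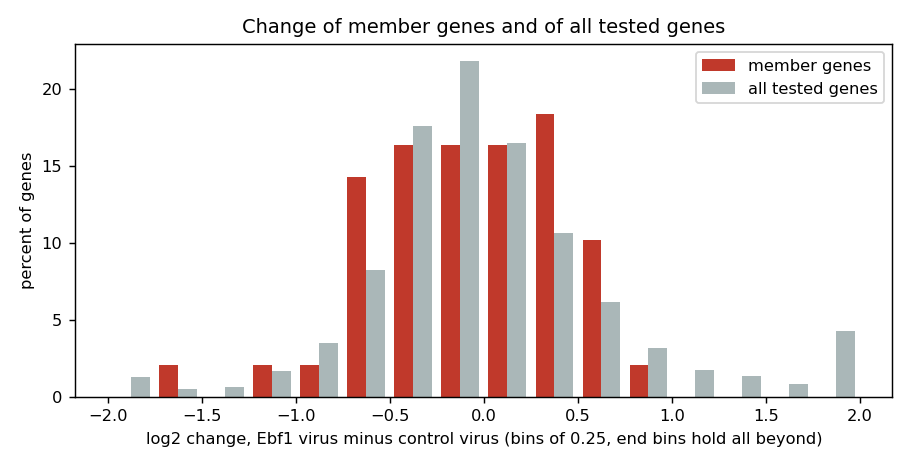
Share of genes (percent, vertical axis) by log2 change, Ebf1 cells minus control cells (horizontal axis, bins of 0.25), for the 49 tested cell cycle genes (red) and all 13834 tested genes (grey). The bins at both ends hold all changes beyond them. The red bars are mostly within 0.75 of 0, and 4.08% of the cell cycle genes lie at 1 or beyond in either direction, against 12.3% of all genes.

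The 4 genes not tested were not well above background on enough arrays. Ccna1, the germ line A cyclin, Ccnb3, a meiotic B cyclin, Cdkn1c, the imprinted Cip/Kip inhibitor, and Ccnb1ip1 were above background on no array of either group. Of the 14 probes not tested 13 were above background on no array. The other was a second Cdk1 probe, above background on 2 of 3 Ebf1 arrays and 1 of 3 control arrays. All but 1 of the 77 tested probes were above background on all 6 arrays, so no gene passed the filter through 1 group alone except Cdk3, above background on 3 Ebf1 arrays and 1 control array.

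The E cyclins activate Cdk2 at the entry to S phase, and Ccne1 showed the largest change of any cyclin tested. It stood at 3.70, 3.58 and 3.87 in Ebf1 cells, against 4.66, 4.95 and 4.95 in control cells (chromosome 7, 38882937 to 38882960 on the minus strand in mm9). Every Ebf1 array lay below every control array, with a gap wider than the spread within either group. The change was -1.13 ± 0.16 (limma adjusted p = 0.00200), a level 2.19-fold lower in Ebf1 cells. A second Ccne1 probe of another sequence, which the array lists at the same position, read -1.44, -1.20 and -1.42 in Ebf1 cells against 0.02, -0.29 and -0.29 in control cells. Its change of -1.17 ± 0.16 (limma adjusted p = 0.00171) was of the same size. Ccne1 was called under each of the 17 other settings, with changes as large as -1.45 and an adjusted p of at most 0.0485. Ccne2, the other E cyclin, varied widely within both groups, at 1.13, -0.14 and 0.21 in Ebf1 cells against 0.18, 1.13 and 0.81 in control cells, and its change of -0.31 ± 0.36 was not called.

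The Ccne1 promoter is shown because this was the called cyclin. The window is the 250 bases before the gene start in RefSeq (GRCm38.p6, chr7:38107491-38107740, minus strand), with capitals at matches to CCCNNGGG, the palindromic core of the motif bound by EBF proteins.
Ccne1: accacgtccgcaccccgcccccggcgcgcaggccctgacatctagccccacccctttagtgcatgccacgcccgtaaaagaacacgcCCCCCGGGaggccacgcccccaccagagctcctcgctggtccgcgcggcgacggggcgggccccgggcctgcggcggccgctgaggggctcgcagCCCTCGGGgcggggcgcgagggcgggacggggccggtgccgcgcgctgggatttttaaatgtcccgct
The core was matched 163 and 68 bases before the start. It is short and common: 11.8% of all 32851 promoter windows of this length hold it on either strand, and the longer EBF motif, which is the core with T before it and A after it, is in 0.779% and not in this window. Of the cell cycle genes 40 had a window in the table, 47 windows in all, of which 10 (21.3%) hold the core and 0 the longer motif. The genes with a core match were Ccna1, Ccnd3, Ccne1, Cdk2, Cdk5r2, Cdk9, Cdkn2a, Cdkn2aipnl, E2f7 and E2f8, and of these only Ccne1 was called. A match describes letters only.

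The D cyclins had changes on both sides of 0. Ccnd3, which drives the expansion of B cell precursors, had the smallest p among them. It stood at 4.71, 4.90 and 5.08 in Ebf1 cells, against 4.11, 4.28 and 4.55 in control cells. Every Ebf1 array was above every control array, but the change of 0.58 ± 0.18 did not pass (limma adjusted p = 0.0522). It passed under 6 of the 17 other settings, with an adjusted p in limma of 0.0165 with quantile normalisation and of 0.0483 without Ebf1 replicate 1. For Ccnd2, the brightest of 3 probes had a change of -0.28 ± 0.15 and the others of -0.15 and -0.09, none of them called. Ccnd1, read by a probe printed in 10 spots, had a change of 0.44 ± 0.23 with overlapping groups.

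Of the kinase partners of the D cyclins, Cdk6 had the smallest p of the CDKs and gave 3 different readings from 3 probes. Its brightest probe read 5.10, 5.39 and 5.70 in Ebf1 cells, against 5.85, 5.85 and 6.02 in control cells. The groups did not overlap, and the change of -0.51 ± 0.18 did not pass (limma adjusted p = 0.0853). Under 4 of the 17 other settings Cdk6 did pass, with an adjusted p in limma of 0.0468 without Ebf1 replicate 3. A second probe read -0.90, -0.86 and -0.52 in Ebf1 cells against 0.19, 0.13 and 0.53 in control cells and was called lower, at -1.04 ± 0.18 (limma adjusted p = 0.00564). The remaining probe showed a change of 0.02 ± 0.14. The probes match different accessions or positions of the gene, between 3473220 and 3529346 on chromosome 5 (mm9), so which transcripts each reads was not determined. Cdk4, the other D cyclin kinase, stood at 3.55, 4.12 and 3.75 in Ebf1 cells against 4.51, 4.27 and 4.18 in control cells. Its groups did not overlap either, and its change of -0.52 ± 0.19 was not called (limma adjusted p = 0.0916).

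No other kinase was called. Cdk1, the mitotic kinase, had a change of -0.39 ± 0.19 and Cdk2, the partner of E and A cyclins, of 0.61 ± 0.41. For Cdk2 a single array set the size: Ebf1 replicate 1 stood at -1.63, against -2.77 and -3.20 on the other Ebf1 arrays and -3.01, -2.78 and -3.64 in control cells. Among kinases that act in transcription, Cdk7 (-0.07 ± 0.19), Cdk8 (-0.34 ± 0.13) and Cdk9 (0.34 ± 0.18) had changes on both sides of 0. Second probes of Cdk7 and Cdk8 read -0.40 and 0.01, each unlike the brighter probe of the same gene. Cdk5, known from neurons, had a change of -0.06 ± 0.17, Cdk10 of -0.26 ± 0.14 and Cdk3 of 0.44 ± 0.26. The 10 kinases had a median of -0.16.

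**Figure D2:**
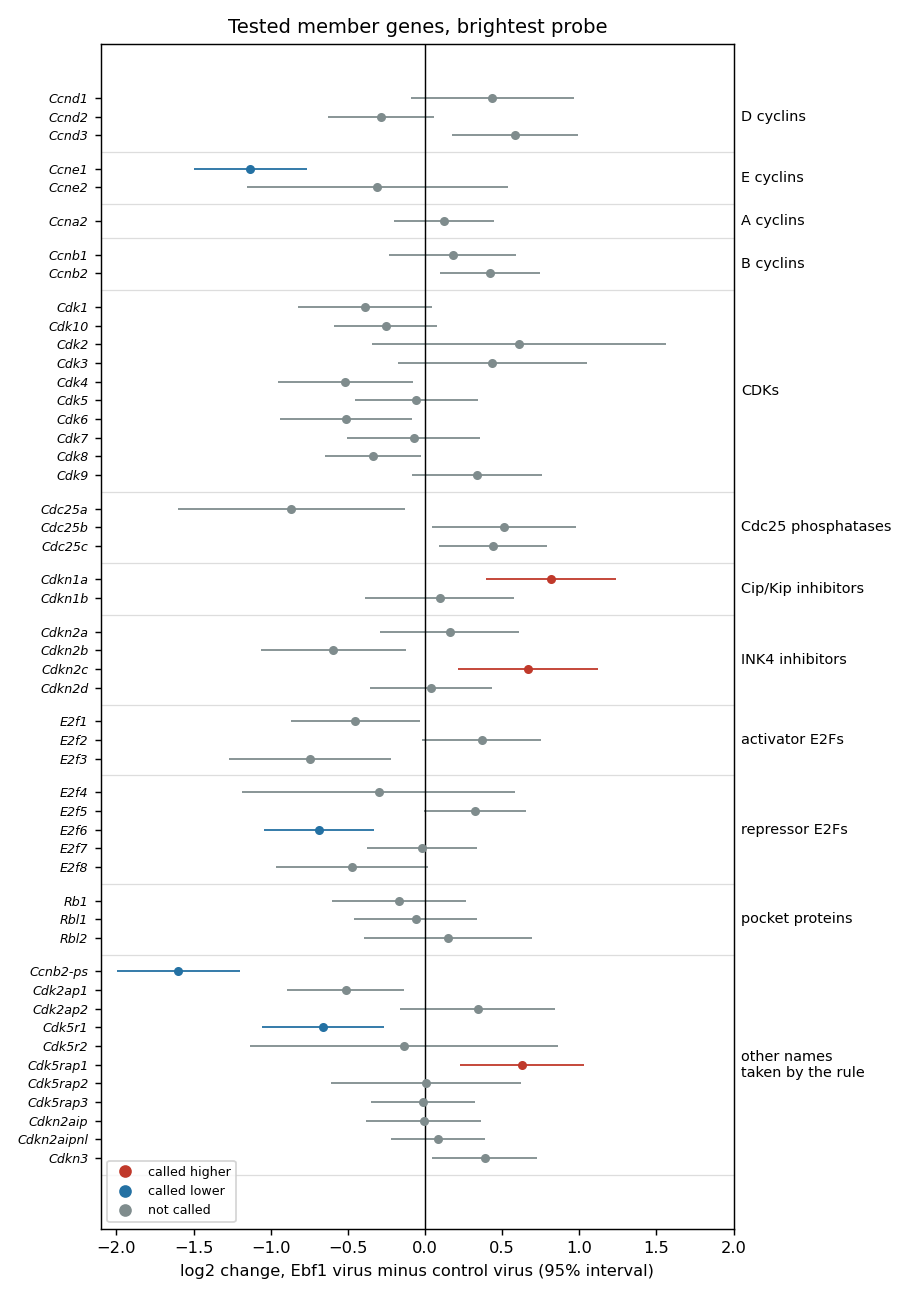
Log2 change, Ebf1 cells minus control cells (horizontal axis), of each of the 49 tested genes with the 95% confidence interval of the fit, grouped by role. Red points were called higher, blue points lower and grey points not called. Ccnb2-ps at -1.60 and Ccne1 at -1.13 lie farthest to the left and Cdkn1a at 0.82 farthest to the right.

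CDK inhibitors supplied 2 of the 3 genes called higher. Cdkn1a, the Cip/Kip inhibitor induced by DNA damage and by differentiation signals in many cells, stood at 3.37, 3.87 and 3.66 in Ebf1 cells, against 2.77, 2.66 and 3.02 in control cells (chromosome 17, 29237377 to 29237436 on the plus strand in mm9, 10 spots). All Ebf1 arrays were above all control arrays. The change was 0.82 ± 0.18 (limma adjusted p = 0.0176), or 1.76-fold. Its change was above 0 under every other setting, which groups that do not overlap fix for most of them. The call was lost with median scaling (change 0.50), without a filter on dim probes and with slide as a fixed block. It was also lost without Ebf1 replicate 2 (limma adjusted p = 0.0600) or 3 (0.0513) or control replicate 1 (0.0527) or 2 (0.0749).

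Cdkn2c, an INK4 inhibitor of Cdk4 and Cdk6, stood at 2.98, 2.37 and 2.89 in Ebf1 cells, against 1.94, 2.21 and 2.08 in control cells (chromosome 4, 109333779 to 109333838 on the minus strand in mm9). The groups did not overlap, and Ebf1 replicate 2 came close to the highest control array. The change was 0.67 ± 0.19 (limma adjusted p = 0.0464), or 1.59-fold. A second probe, which shares 40 bases with the first and is no independent reading, had a change of 0.71 ± 0.22 and was not called (limma adjusted p = 0.0572). The call of the brighter probe was lost without any single array other than Ebf1 replicate 2 (limma adjusted p of 0.0938 to 0.119). In all it was lost under 9 of the 17 other settings, among them the replicate block and no filter on dim probes. With median scaling the change was 0.36.

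The remaining inhibitors were not called. Cdkn1b, the Cip/Kip inhibitor of resting lymphocytes, had a change of 0.10 ± 0.21, and a dimmer probe read -0.17. Of the INK4 family, Cdkn2d had a change of 0.04 ± 0.17 and Cdkn2a, the locus that also encodes Arf, of 0.16 ± 0.19. Cdkn2b lay the other way, at -2.05, -2.45 and -1.90 in Ebf1 cells against -1.37, -1.82 and -1.42 in control cells. These groups did not overlap and the change of -0.60 ± 0.20 did not pass (limma adjusted p = 0.0738). The INK4 genes therefore lay on both sides of 0, with Cdkn2c the one called.

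**Figure D3:**
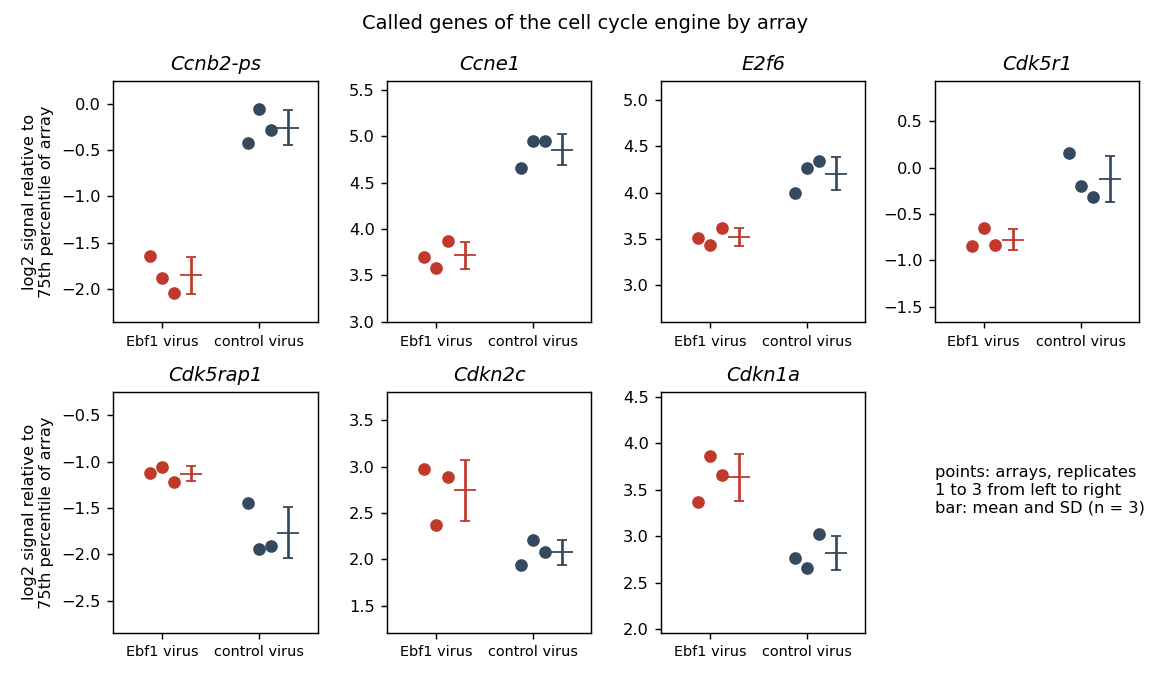
Log2 signal relative to the 75th percentile of the array (vertical axis) of the 7 called genes on each array, with Ebf1 cells in red on the left and control cells in dark blue on the right. Bars are the mean and SD of 3 arrays, and each panel spans the same range of log2 units. In every panel the 3 Ebf1 arrays and the 3 control arrays do not overlap, and Cdkn2c in Ebf1 replicate 2, at 2.37, comes nearest to the control arrays, of which the highest is 2.21.

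Among the E2Fs, E2f6, a repressor that acts without pocket proteins, was called lower. It stood at 3.51, 3.43 and 3.62 in Ebf1 cells, against 4.00, 4.27 and 4.34 in control cells (chromosome 12, 16833463 to 16833522 on the plus strand in mm9). The Ebf1 arrays were tightly grouped and all lay below the control arrays. The change was -0.69 ± 0.15 (limma adjusted p = 0.0176), a level 1.61-fold lower in Ebf1 cells. A dimmer probe read a change of -0.52 ± 0.22 and was not called (limma adjusted p = 0.139). The call of the brighter probe was lost without Ebf1 replicate 2 (limma adjusted p = 0.0619), control replicate 2 (0.0765) or control replicate 3 (0.0721). It was also lost without a filter on dim probes and with slide as a fixed block.

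E2f3, an activator E2F of the G1 to S transition, was not called on its brightest probe but was on the others. Its brightest probe read 2.95, 2.93 and 3.24 in Ebf1 cells, against 3.32, 4.05 and 3.99 in control cells. Control replicate 1 lay near the Ebf1 arrays, and the change of -0.75 ± 0.22 just missed the threshold (limma adjusted p = 0.0520, and 0.0125 without control replicate 1). Both other tested probes were called lower, at -0.94 ± 0.17 (limma adjusted p = 0.00774) and -0.52 ± 0.15 (0.0470). These probes were dimmer than the first and were above background on all 6 arrays. With the mean of its probes E2f3 was called, at -0.73 (adjusted p = 0.00583).

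The other E2Fs were not called. E2f1, the founding activator, had changes of -0.45 ± 0.18 and -0.44 ± 0.21 on its 2 probes, and E2f2 of 0.37 ± 0.17. Of the repressors, E2f4 had a change of -0.30 ± 0.38 with a wide spread in control cells, E2f5 of 0.33 ± 0.14, E2f7 of -0.02 ± 0.15 and E2f8 of -0.47 ± 0.21. The 3 activators thus did not share a sign. The pocket proteins that hold E2Fs in check had changes close to 0. Rb1, with the smallest p of the 3, stood at 2.03, 1.59 and 1.77 in Ebf1 cells against 1.69, 2.07 and 2.13 in control cells. These values overlap, and the change was -0.17 ± 0.19. Rbl1 had a change of -0.06 ± 0.17 and Rbl2 of 0.15 ± 0.23.

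The A and B cyclins and the Cdc25 phosphatases act later in the cycle, except Cdc25a, which also acts at the G1 to S transition. Ccnb2, a mitotic cyclin, stood at 5.53, 5.55 and 5.40 in Ebf1 cells, against 5.11, 5.15 and 4.95 in control cells. The groups were well apart, but the change was small at 0.42 ± 0.14 and did not pass (limma adjusted p = 0.0669). It passed under 4 of the 17 other settings. Ccnb1 had changes of 0.18, 0.05 and 0.17 on its 3 probes. Ccna2, the cyclin of S phase and G2, stood at 4.76, 4.60 and 4.81 in Ebf1 cells against 4.55, 4.69 and 4.56 in control cells. These ranges overlap, and the change of 0.12 ± 0.14 had the other sign with median scaling.

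Of the Cdc25 phosphatases, Cdc25c had the smallest p. It stood at 0.14, 0.27 and 0.03 in Ebf1 cells, against -0.38, -0.12 and -0.38 in control cells. The groups did not overlap, and the change of 0.44 ± 0.15 did not pass (limma adjusted p = 0.0737), with 0.52 ± 0.21 on a second probe. Cdc25b had changes of 0.51, 0.22 and 0.39 on 3 probes, none called. Cdc25a had the largest change of any uncalled gene: it stood at -0.53, 0.42 and 0.29 in Ebf1 cells against 1.44, 0.53 and 0.82 in control cells. The spread within both groups was wide, and the change of -0.87 ± 0.32 was not called (limma adjusted p = 0.0910), nor was that of -0.65 ± 0.31 on a second probe.

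Promoters are shown for 4 of the genes above, none of them called on its brightest probe and all chosen after their values were seen, because E2F sites and the pair of CCAAT boxes and CHR elements are the textbook marks of G1 to S and of G2 to M promoters. The windows are the 250 bases before the RefSeq start in GRCm38.p6: E2f3 at chr13:29986064-29986313 (minus strand, the upstream one of 2 starts), Cdc25a at chr9:109875329-109875578 (plus strand), Cdk1 at chr10:69352913-69353162 (minus strand) and Ccnb2 at chr9:70421555-70421804 (minus strand). Capitals mark E2F letters (TTTCCCGC, TTTCGCGC, TTTGGCGC or TTTGCCGC), CHR letters (TTTGAA) and CCAAT, on either strand.
E2f3: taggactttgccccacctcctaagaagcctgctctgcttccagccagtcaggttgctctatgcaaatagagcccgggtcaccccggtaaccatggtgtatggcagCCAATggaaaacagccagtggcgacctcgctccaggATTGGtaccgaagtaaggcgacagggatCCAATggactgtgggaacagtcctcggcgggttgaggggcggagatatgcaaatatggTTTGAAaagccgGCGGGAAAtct
Cdc25a: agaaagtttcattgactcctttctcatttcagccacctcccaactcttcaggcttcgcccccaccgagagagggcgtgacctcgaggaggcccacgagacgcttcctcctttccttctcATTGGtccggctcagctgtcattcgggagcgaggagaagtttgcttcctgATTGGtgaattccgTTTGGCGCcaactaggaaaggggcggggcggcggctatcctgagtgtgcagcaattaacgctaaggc
Cdk1: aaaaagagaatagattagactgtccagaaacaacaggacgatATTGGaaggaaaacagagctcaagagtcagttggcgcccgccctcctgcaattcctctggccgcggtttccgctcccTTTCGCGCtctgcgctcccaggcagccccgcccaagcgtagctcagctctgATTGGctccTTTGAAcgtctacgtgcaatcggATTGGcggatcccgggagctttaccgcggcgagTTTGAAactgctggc
Ccnb2: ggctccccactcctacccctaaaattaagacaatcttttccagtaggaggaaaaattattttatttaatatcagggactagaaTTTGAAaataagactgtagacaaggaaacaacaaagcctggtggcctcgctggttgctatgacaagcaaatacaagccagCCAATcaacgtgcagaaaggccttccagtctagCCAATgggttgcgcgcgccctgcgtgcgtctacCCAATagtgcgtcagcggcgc
An E2F match lies 11 bases before the start in E2f3, 67 in Cdc25a and 131 in Cdk1, and the Ccnb2 window has none. The E2f3 window shown holds all 3 kinds of letters, with 1 CHR match and 3 CCAAT boxes. That of Cdk1 also holds all 3, with 2 CHR matches and 3 CCAAT boxes. The window of the other E2f3 start holds none of these letters. Cdc25a holds 2 CCAAT boxes and no CHR match, and Ccnb2 holds 1 CHR match and 3 CCAAT boxes. E2F letters were thus also in the window of the mitotic kinase gene Cdk1, and CHR letters also in that of E2f3. These windows, few and chosen after their values were seen, cannot show whether the letters separate G1 to S genes from mitotic ones. E2F letters are in 7 of the 47 windows (14.9%), those of Cdc25a, Cdk1, Cdk2, Cdkn2a, E2f3, E2f7 and Rbl1, against 1.86% of all windows. None of these 7 genes was called on its brightest probe, and their changes ran from -0.87 for Cdc25a to 0.61 for Cdk2. CHR letters are in 19.1% of the windows against 16.0% of all, and CCAAT in 51.1% against 33.8%. No window of Cdkn1a, Cdkn2c or E2f6, all called, holds any of the letters searched.

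The 12 genes taken for their names held the other 3 calls. Ccnb2-ps, a pseudogene of cyclin B2, had the largest change of all: it stood at -1.64, -1.88 and -2.04 in Ebf1 cells, against -0.43, -0.06 and -0.29 in control cells. The groups were separated by more than the range within either. The change was -1.60 ± 0.17 (limma adjusted p = 0.000528), a level 3.03-fold lower in Ebf1 cells, and it was called under all 17 other settings, at -1.91 to -1.12. The direction is opposite to the sign of Ccnb2 itself, which was not called, and the 2 probes share no run longer than 6 bases. The pseudogene is named here as the array names it. The sequence of its probe (chr8:74441520-74441579 in mm9, plus strand) is given below.
Ccnb2-ps: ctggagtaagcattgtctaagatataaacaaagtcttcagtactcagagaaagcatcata
What transcript carries these bases was not determined here.

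Cdk5r1, which encodes the p35 activator of Cdk5, stood at -0.85, -0.65 and -0.84 in Ebf1 cells, against 0.16, -0.20 and -0.32 in control cells (chromosome 11, 80293826 to 80293885 on the plus strand in mm9). The Ebf1 arrays were all lower, by a change of -0.66 ± 0.17 (limma adjusted p = 0.0304). Cdk5rap1, a mitochondrial tRNA-modifying enzyme, stood at -1.12, -1.06 and -1.22 in Ebf1 cells, against -1.45, -1.94 and -1.91 in control cells (chromosome 2, 154176556 to 154177923 on the minus strand in mm9). It was higher in all Ebf1 arrays, by 0.63 ± 0.17 (limma adjusted p = 0.0385), and by 0.32 with median scaling. Both calls depended on most arrays. For Cdk5r1 the limma adjusted p was 0.0571 to 0.0823 without any 1 array other than control replicate 3. For Cdk5rap1 it was 0.0710 to 0.140 without any other than control replicate 1. Of the 17 other settings the Cdk5r1 call was lost under 8 and the Cdk5rap1 call under 10. For both these included the replicate block and no filter on dim probes, and for Cdk5rap1 also quantile normalisation.

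The other names had no call. Cdk2ap1, which encodes a Cdk2-binding protein, had a change of -0.51 ± 0.16 (limma adjusted p = 0.0603) and its relative Cdk2ap2 of 0.34 ± 0.22. Cdkn3, a phosphatase that acts on CDKs, had changes of 0.39 ± 0.15 and 0.34 ± 0.14 on its 2 tested probes, with no overlap of the groups on either. Cdk5r2 (-0.13), Cdk5rap2 (0.01), Cdk5rap3 (-0.01), Cdkn2aip (-0.01) and Cdkn2aipnl (0.08) had changes within 0.15 of 0. Cdk5rap2 had a change of -0.57 ± 0.32 on a dimmer probe.

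Several genes could be checked against a second probe. Of 22 genes with more than 1 tested probe, all probes lay on the same side of 0 in 16. Ccne1 alone was called on all of its probes, 4 genes (E2f3, E2f6, Cdk6 and Cdkn2c) were called on some, and none was called in both directions. The spread between arrays of a group limited what could pass: the SD of the tested probes was 0.04 to 0.81 in Ebf1 cells (median 0.23) and 0.01 to 0.81 in control cells (median 0.20).

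**Figure D4:**
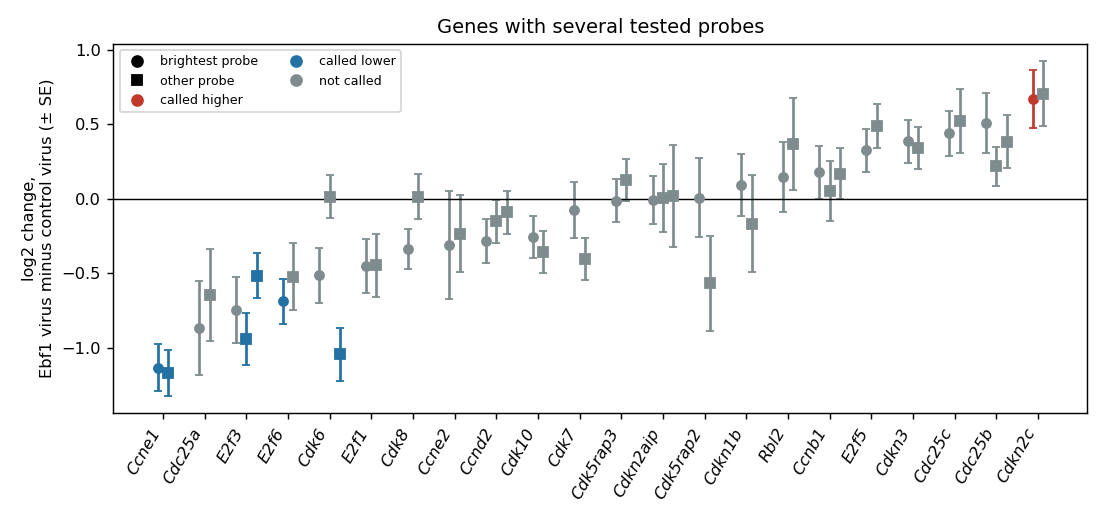
Log2 change, Ebf1 cells minus control cells (vertical axis), with the SE of the fit, for each tested probe of the 22 genes that have several. Circles are the brightest probe and squares the others, coloured by call. Both Ccne1 probes are called (-1.13 and -1.17), whereas the 3 Cdk6 probes read -0.51, 0.02 and -1.04.

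On slide 1, which alone held both groups, Ebf1 replicate 1 minus control replicate 2 was -1.24 for Ccne1, -1.58 for Ccnb2-ps, -0.76 for E2f6 and -0.65 for Cdk5r1. It was 0.71 for Cdkn1a, 0.77 for Cdkn2c and 0.82 for Cdk5rap1. These arrays are part of the pooled changes, and since the groups of these 7 genes do not overlap, the sign of each difference was fixed by that. In the fit with slide as a block, which rests on that pair of arrays, only Ccne1 and Ccnb2-ps stayed called.

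Other genes of the cell cycle pathway were read from lists. Of 16 further cyclins and CDK partners, all of them tested, 1 was called, higher, and the median change was -0.11. It was Ccng2, an atypical cyclin linked to cell cycle exit, at 3.52, 3.46 and 3.83 in Ebf1 cells against 2.35, 2.50 and 2.86 in control cells. Its groups did not overlap, and it rose by 1.03 ± 0.19 (limma adjusted p = 0.00693). Of 11 tested partners of E2Fs and members of the DREAM complex, 1 was called, lower, with a median of -0.19. This was Lin54, which encodes a DNA-binding subunit of DREAM, at -0.74 ± 0.16 (limma adjusted p = 0.0158). Of 22 genes of CDK phosphorylation, checkpoints and cyclin turnover, 3 were called, all lower, with a median of -0.10. They were the checkpoint kinase gene Atr (-0.61 ± 0.15, limma adjusted p = 0.0257), the phosphatase gene Cdc14b (-0.67 ± 0.19, 0.0445) and Skp2 (-0.46 ± 0.13, 0.0446), whose product marks Cdkn1b for degradation.

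Few targets of the engine were called. Of 30 genes of the G1 to S transition and DNA synthesis, 1 was called, higher, with a median of -0.28. The one called was Uhrf1, which maintains DNA methylation at replication, at 0.72 ± 0.18 (limma adjusted p = 0.0294), against the sign of the list's median. Of 25 genes of G2 and mitosis, 1 was called, also higher, with a median of -0.01. Kif23, a kinesin of cytokinesis, rose by 0.85 ± 0.18 (limma adjusted p = 0.0134). Beside these medians the median over all tested genes was -0.06, and each list's share of calls lay under the 23.5% of all tested genes.

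**Figure D5:**
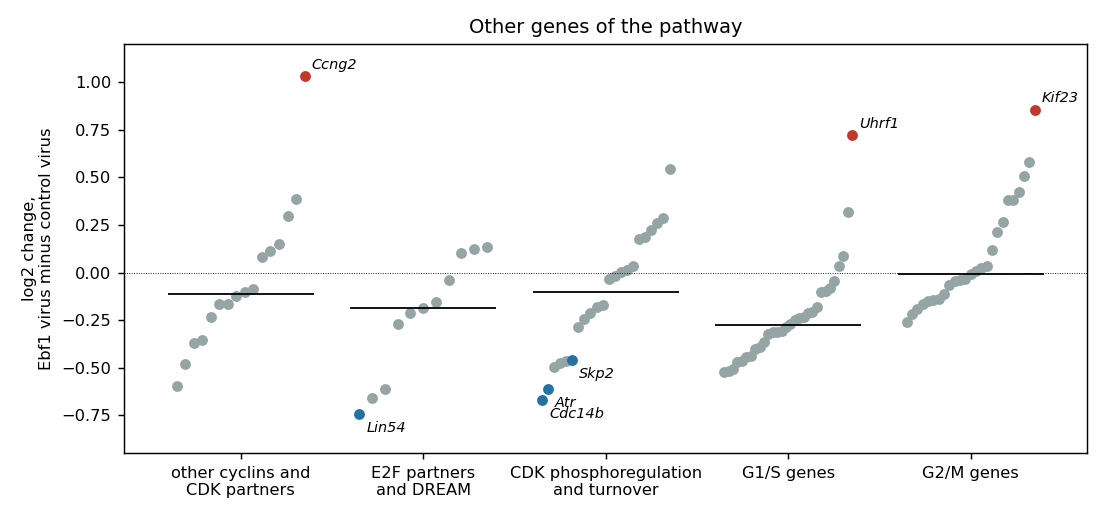
Log2 change, Ebf1 cells minus control cells (vertical axis), of each tested gene of 5 lists of cell cycle genes, sorted within each list. Red points were called higher, blue points lower and grey points not called, and the horizontal bars are the medians. The G1 to S list has its median at -0.28 and the G2 and mitosis list at -0.01, and 7 genes in all 5 lists were called.

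Markers of other cells were also read from lists, and their part in the results above was not tested. Beside the counts below, 23.5% of all tested genes were called, 12.6% higher and 10.9% lower. Of 15 tested markers of OP9 stromal cells 3 were called, all higher in Ebf1 cells (Fstl1 0.65 ± 0.17, Fn1 1.07 ± 0.30 and Col5a1 0.88 ± 0.26), with a median of 0.54. All 15 were above background on all 6 arrays, among them Col1a1, Col1a2, Col3a1, Pdgfrb, Cxcl12 and Sparc, and 13 had changes above 0. Their summed level was 98.5 to 120 in Ebf1 cells and 100 to 111 in control cells, in units of each array's 75th percentile. Such a sum adds signals of different probes, is set mainly by the brightest and does not measure a share of cells. Most of the OP9 sum came from Vim and Acta2, the 2 with changes below 0. Without them it was 30.9 to 40.8 in Ebf1 cells against 20.1 to 27.7 in control cells. These 2 were left out with their signs known, and the remaining 13 all had changes above 0. The higher sum in Ebf1 cells thus follows from that choice. Of the 5 markers not tested, Lum and Dcn were above background on no array, and Vcam1, Pdgfra and Thbs1 on 1 Ebf1 array and no control array each. Of 14 tested markers of T, NK and myeloid cells 3 were higher and 8 lower, with Gzma at 5.36 ± 0.16, Il2rb at -2.19 ± 0.14 and Itgax at -2.68 ± 0.18, and a summed level of 62.8 to 72.2 in Ebf1 cells against 45.5 to 52.6 in control cells. Without Gzma, left out with its value known, that sum was 21.1 to 23.8 in Ebf1 cells against 44.4 to 51.5 in control cells. Of 9 tested pre-pro-B and progenitor markers 2 were higher and 5 lower: Ly6d was at 2.63 ± 0.19, Spn at -1.60 ± 0.14 and Il7r at -1.69 ± 0.15. Of the committed B cell markers Vpreb1 was at 8.20 ± 0.15 and Cd79b at 7.42 ± 0.15, and Igll1 was at 11.00 ± 0.14 with only 2 of 3 control arrays above background, so that the size of its change is uncertain, while Cd79a was above background on no array and Pax5 and Cd22 on 1 Ebf1 array each.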

How the data were processed

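Total RNA of each sample was labelled with Cy3 and hybridised to 1-colour Agilent arrays. The deposited array files hold spot intensities that were background-subtracted and spatially detrended within each array by Agilent Feature Extraction 10.5.1.1, per the file headers, with no normalisation between arrays recorded. The flags for spots above background, saturated or outlying are other values written by the same software, per the file headers. The series' deposited table of intensity equals these signals within 0.1% at all 45018 features. Positions are those of mm9, per the file headers.

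Outlier spots (65 to 116 per array) were left out, log2 was taken, the 75th percentile of the 43379 non-control features was subtracted and spots of a probe were averaged. Probes well above background on all 3 arrays of a group were tested (20452 of 41174). No spot was saturated. Groups and replicate numbers come from the sample titles. Ebf1 and control groups were compared by lmFit and eBayes of limma 3.58.1 (R 4.3.3; data.table, version 1.17.8), adjusting p by Benjamini-Hochberg over these probes and calling those under 0.05. The fit was tested on simulated data, where it recovered most of the largest changes made, few of the intermediate and none of the smallest. Far fewer probes were changed there than were called in the data, so this recovery does not carry over to the data. Symbols were updated through RefSeq accessions (74 of the 91 probes matched), and promoter windows are RefSeq's (GRCm38.p6). Given in full are the called genes, the gene with the smallest p in each role, and, from each list, up to 3 called genes with the smallest p; other genes are given by their change, and some were given in full after their values were seen. The genes and lists were chosen with earlier results of these data known. The number of arrays limits the precision. The alternatives were normexp background correction with an offset of 50, quantile and median scaling, other filters, replicate or slide as a block, trend and robust options of eBayes, averaging a gene's probes, using the deposited table, and omitting 1 array at a time.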

Additional observations from a re-analysis of the deposited data

How the results depend on the processing

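All 7 called genes kept their direction under the 17 alternatives, and of the 42 uncalled genes 9 were called and 16 changed sign under at least 1. The cause of these differences was not tested. For the 7 called genes most alternatives could not reverse the direction. Other filters, the replicate block, the eBayes options and the deposited table left the change as it was. With groups that do not overlap, leaving out 1 array or fitting slide as a block could not reverse a sign either. That left normexp correction, quantile and median scaling and the mean of all probes. Called higher were 3 genes, against 5 with trend and robust options, 5 with the mean of all probes, 5 with normexp correction, 0 with median scaling, 0 without a filter on dim probes, 0 with slide as a fixed block and 0 to 2 with each array left out. Called lower were 4 genes, against 8 with trend and robust options, 7 with the mean of all probes, 7 with median scaling, 8 with normexp correction, 2 without a filter, 2 with slide as a fixed block and 2 to 5 with each array left out. Of the 11 called probes of these genes there were 17 with trend and robust options, 4 without a filter, 2 with slide as a fixed block and 5 to 8 with each array left out. Over all probes 4420 were called, against 1991 without a filter, 2168 with slide as a fixed block and 2608 to 3688 with each array left out (2608 without control replicate 2 and 2811 without control replicate 3). Calls were higher in Ebf1 cells in 53.3% of cases, against 32% with median scaling, 67.5% without a filter and 60.3% with the replicate block. Ccna2 had a change of -0.19 with median scaling. As a random block the slide had a consensus correlation of 0.00952.

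The labels do not say whether the replicate numbers pair the samples. The deviations of same-numbered arrays from their group means correlated at -0.17, -0.25 and 0.10. Those of differently numbered arrays correlated at -0.13 to 0.29, highest for Ebf1 replicate 1 and control replicate 2, the arrays of slide 1. With 3 arrays in each group these values cannot decide whether the samples are paired. With the replicate block 1 gene was called higher, 3 lower, and 7 probes and 3097 probes of the whole array were called.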
